A study of Mus musculus with 9 samples.

Results

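The MS4A genes code for small membrane proteins that cross the membrane several times, and 8 of them were followed here in mouse bone marrow-derived macrophages (BMDMs): Ms4a4a, Ms4a4c, Ms4a6b, Ms4a6c, Ms4a6d, Ms4a7, Ms4a8a and Ms4a14. They were taken by gene name from the deposited table, and all 8 were found among its 28379 genes. The RNA sequencing covered 9 libraries in 3 groups of 3. BMDMs are macrophages grown from bone marrow in macrophage colony-stimulating factor (M-CSF), and here they came from C57BL/6J mice that the study's methods give as 10 weeks old. Every culture, the controls included, held M-CSF at 20 ng/ml. The PBS group was the control without RANKL or vitamins, and the sources used here do not name the solvent of the vitamins. The RANKL cultures were given 100 ng/ml of RANKL for 48 h, and those named RANKL + Vit D + K were given that dose together with vitamin D (calcitriol) at 1000 nM and vitamin K (MK4) at 20 μM according to the labels. The paper's methods give a higher dose of vitamin K. RNA is described as pooled, and the text does not say which mice or cultures stand behind each library, so p-values measure the spread between these libraries, which may be technical.

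The best known relatives of these genes are CD20 of B cells and the beta chain of the high-affinity IgE receptor of mast cells. Several other members are made mainly by monocytes and macrophages, where their proteins sit beside receptors of the innate immune system and are thought to tune their signals. MS4A4A lies on alternatively activated macrophages and has been reported to associate with dectin-1, MS4A6D has been reported to act together with VSIG4, and Ms4a7 is widely used as a marker of macrophages. RANKL, with M-CSF, turns macrophages into bone-resorbing osteoclasts, so these cultures followed the family while macrophages were drawn towards that fate. In the RANKL + Vit D + K group calcitriol, the hormonal form of vitamin D, and MK4 were present together. No group held either vitamin alone, so their parts cannot be told apart.

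Within the family, 4 members fell strongly with the vitamins and 3 changed far less. Ms4a4a, Ms4a4c, Ms4a6b and Ms4a6c were between 8.33- and 153-fold lower in RANKL + Vit D + K than in RANKL. Ms4a7 fell 1.79-fold in the same comparison, a call lost under 4 of 17 other settings. Ms4a14 did not pass the test, and Ms4a6d passed it only without RANKL replicate 2. With RANKL alone 2 members were called: Ms4a14 and Ms4a7 were 2.46- and 2.10-fold lower than in PBS, calls that were lost under 9 and 11 of 17 other settings, and no member was called higher in any comparison. Ms4a8a was close to 0 in all libraries. In RNA from whole cultures, fewer cells of a type and less RNA per cell cannot be told apart.

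The 8 genes lie in 1 cluster of 537 kb on mouse chromosome 19, at chr19:11067471-11604849 (GRCm38). They form 2 strands of 4: Ms4a4a, Ms4a4c, Ms4a6c and Ms4a6b on the plus strand, and Ms4a8a, Ms4a14, Ms4a7 and Ms4a6d on the minus strand. All 4 plus-strand members are the 4 that fell most with the vitamins. The strand was looked at after the values were seen and was given no test.

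The promoters of the 4 plus-strand members are shown because these genes carried the largest changes. The RefSeq starts of Ms4a4c, Ms4a6b and, by a few bases, Ms4a6c lie inside the bounds these genes have in the deposited table, and that of Ms4a4a lies before them. Each window is the 250 bases before the RefSeq start of the gene on GRCm38.p6, plus strand, 5′ to 3′. Capitals mark GAGGAA, the core of the PU.1 (ETS) motif, and GAAANNGAA, the repeat of the interferon-stimulated response element, on either strand. The windows are chr19:11375238-11375487 for Ms4a4a, chr19:11407411-11407660 for Ms4a4c, chr19:11518309-11518558 for Ms4a6b and chr19:11469118-11469367 for Ms4a6c.
Ms4a4a: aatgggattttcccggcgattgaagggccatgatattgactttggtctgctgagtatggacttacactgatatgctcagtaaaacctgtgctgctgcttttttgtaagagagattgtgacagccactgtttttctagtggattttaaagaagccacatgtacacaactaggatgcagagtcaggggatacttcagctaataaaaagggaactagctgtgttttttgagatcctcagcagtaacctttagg
Ms4a4c: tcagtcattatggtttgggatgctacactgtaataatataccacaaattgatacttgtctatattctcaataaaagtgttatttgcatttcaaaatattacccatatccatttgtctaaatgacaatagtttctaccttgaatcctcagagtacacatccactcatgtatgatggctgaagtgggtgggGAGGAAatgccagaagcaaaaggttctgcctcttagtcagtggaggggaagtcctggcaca
Ms4a6b: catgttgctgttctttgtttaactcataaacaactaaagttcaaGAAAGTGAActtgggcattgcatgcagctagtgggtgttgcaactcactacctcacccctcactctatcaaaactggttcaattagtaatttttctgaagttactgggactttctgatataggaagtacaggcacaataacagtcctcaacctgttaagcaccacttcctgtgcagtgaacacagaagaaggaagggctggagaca
Ms4a6c: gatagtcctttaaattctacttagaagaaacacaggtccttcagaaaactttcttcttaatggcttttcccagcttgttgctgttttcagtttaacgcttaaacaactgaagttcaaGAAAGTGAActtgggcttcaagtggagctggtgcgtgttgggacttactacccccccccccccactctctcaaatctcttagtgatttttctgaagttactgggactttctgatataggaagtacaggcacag
The windows of Ms4a6b and Ms4a6c are near copies of each other. Over 170 aligned bases 152 (89.4%) were identical, and the longest shared run was 48 bases, starting at -118 in Ms4a6b and at -49 in Ms4a6c when -1 is the base before the start. The shared stretch holds GAAAGTGAA in both, at -206 to -198 in Ms4a6b and at -133 to -125 in Ms4a6c. The comparison used a single window for each of the 7 members that had any, and Ms4a6d had none. Among these windows no other pair shared a run longer than 9 bases.

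The RefSeq table used here held windows for 7 of the 8 members, 8 windows in all. For 7 of the 8 windows the bases after the start lie in a GENCODE transcript of the gene. A match to letters is a description and not a binding site. GAAANNGAA was in the windows of 3 members (Ms4a6b, Ms4a6c and Ms4a7) and in 7.15% of 32536 windows of all genes. GAGGAA was in 2 members (Ms4a4c and Ms4a14) and in 23.4% of all windows. TGANTCA, the AP-1 motif, was in 3 members (Ms4a7, Ms4a8a and Ms4a14) and in 6.73%. GGTTCA, a hexamer of the vitamin D receptor motif, was in 1 member, Ms4a6b, at -131 to -126, and in 8.81%. TTGCNNAA (9.57% of windows) and TCATGTG (3.27%), letters of C/EBP and of MITF, were in no member's window. All motifs were searched on both strands. TGANTCA is its own reverse complement in all but its middle base, and GAAANNGAA and GAGGAA can overlap.

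The levels of the members spanned a wide range in PBS. FPKM, a fragment number corrected for how long the transcript is and how deep the library, allows levels to be compared between genes. Mean FPKM in PBS was 158 ± 18.8 for Ms4a6c and 157 ± 9.72 for Ms4a6d (SD, n = 3, as for all means of FPKM), which did not differ beyond their spread. They ranked 193rd and 197th of the genes in the table. Ms4a4a (84.3 ± 14.6) and Ms4a7 (71.3 ± 11.5) followed, and their libraries overlapped. Ms4a6b (34.3 ± 5.75), Ms4a14 (17.3 ± 3.12) and Ms4a4c (4.8 ± 1.05) came next, each with all libraries below those of the gene before it. In RANKL the order of the means was the same, and the libraries of Ms4a14 and Ms4a4c then overlapped as well. With the vitamins the order changed: Ms4a6d led at 60.7 ± 2.84, above every library of Ms4a7 (18.9 ± 4.37), and Ms4a6c had fallen to the third place at 12.7 ± 8.66, overlapping both Ms4a7 and Ms4a14 (7.23 ± 1.98).

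The makeup of the family differed between the groups. The FPKM of the 8 members summed to 584, 479 and 519 in PBS replicates 1 to 3, to 372, 181 and 394 in RANKL, and to 87.8, 118 and 99 in RANKL + Vit D + K. The 3 groups did not overlap. Ms4a6d made up 29.9% ± 2.74 (SD, n = 3, as for all shares) of that sum in PBS, 30.6% ± 3.06 in RANKL and 60.4% ± 7.09 with the vitamins. Ms4a6c went from 30% ± 0.556 and 35.6% ± 1.01 to 11.9% ± 6.34, and Ms4a4a from 15.9% ± 1.61 and 11.2% ± 5.46 to 0.23% ± 0.0585. A share can change because another member fell, and the level of Ms4a6d itself was no higher with the vitamins than in RANKL.

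**Figure D1:**
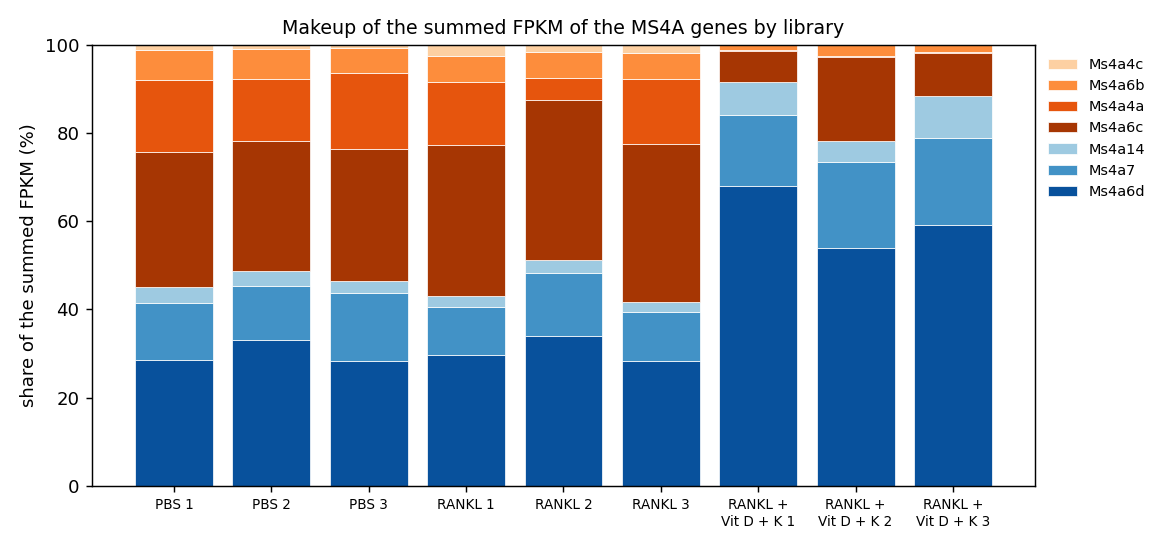
Share of each MS4A gene in the summed FPKM of the family (y axis, %) in each of the 9 libraries (x axis), with minus-strand members in blue and plus-strand members in orange and brown; Ms4a8a is too low to be drawn. Ms4a6d takes 28.2% to 34% in the PBS and RANKL libraries and 54% to 68% in the 3 libraries with the vitamins, where Ms4a4a is between 0.171% and 0.288%.

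**Figure D2:**
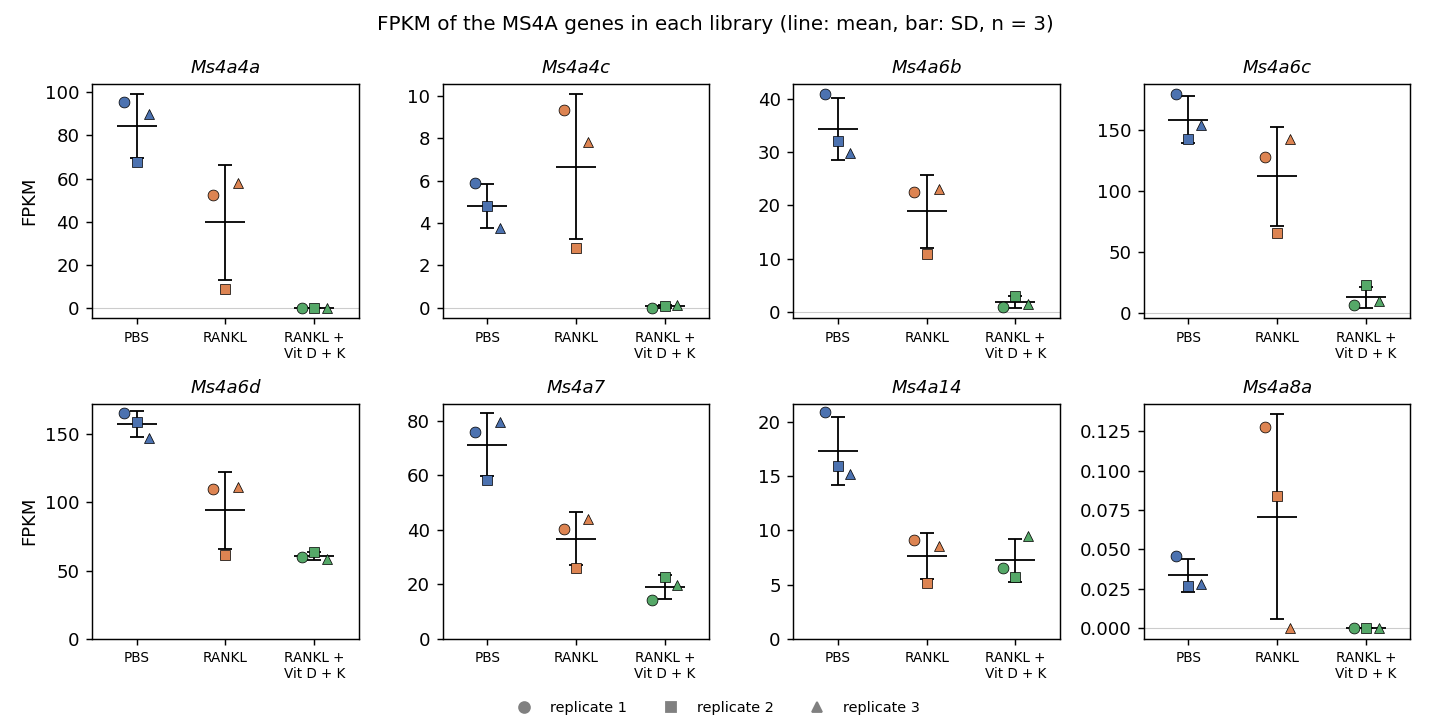
FPKM (y axis, linear, its own scale in each panel) of the 8 MS4A genes in each group (x axis), with a symbol for each library and a line and bar for mean and SD (n = 3). The plus-strand members Ms4a4a, Ms4a4c, Ms4a6b and Ms4a6c lie near the bottom in all 3 libraries with the vitamins, whereas Ms4a6d stays between 58.5 and 63.9 there, and RANKL replicate 2 is the lowest RANKL library in the first 7 panels.

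Changes were fitted on the read counts of all genes and are given as log2 fold changes with their standard error (SE), and a gene was called where its p-value adjusted over all 17002 tested genes was under 0.05. Ms4a8a had too few counts to be tested. Of the 7 tested members, 2 were called lower in RANKL than in PBS, where 1.26% of all tested genes were called lower. On the counts as normalized for the fit, 6 had all RANKL libraries below all PBS libraries, against 19.9% of all genes. Among the 6 was Ms4a6c, whose lowest PBS and highest RANKL libraries were both at an FPKM of 142. With the vitamins 5 of 7 were called lower than in RANKL, against 17.2% of all genes, and those 5 had groups that did not overlap, against 25.4%. Against PBS, 7 of 7 were called lower with the vitamins, where 21.0% of all genes were, and none of the 7 overlapped, against 29.0%. The median change of the 7 tested members was -0.97, -3.06 and -3.67 on the log2 scale in the 3 comparisons, and that of all tested genes was -0.04 in each. The comparisons share groups and are not independent of each other. The members were chosen with earlier results of these data known, so these shares and medians are no test of the family as a whole.

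**Figure D3:**
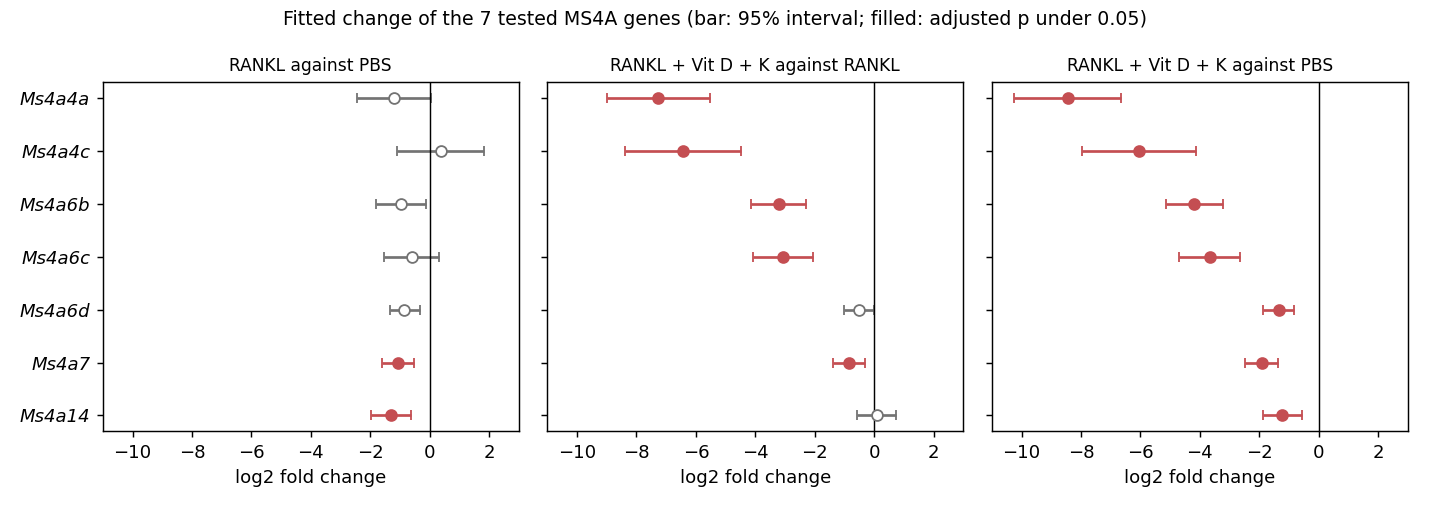
Fitted log2 fold change (x axis) with its 95% interval for the 7 tested MS4A genes (y axis) in the 3 comparisons, filled where the adjusted p-value is under 0.05. The panel of RANKL + Vit D + K against RANKL separates Ms4a4a and Ms4a4c (-7.26 and -6.42) and Ms4a6b and Ms4a6c (-3.21 and -3.06) from Ms4a6d, Ms4a7 and Ms4a14 (-0.50, -0.84 and 0.08).

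Ms4a4a, the member tied to alternative activation and to dectin-1, had the lowest fitted changes of the members with the vitamins, although its interval against RANKL (-8.99 to -5.53) overlapped that of Ms4a4c (-8.37 to -4.47). Its FPKM was 95.5, 67.7 and 89.7 in PBS, 52.4, 8.88 and 57.7 in RANKL, and 0.253, 0.272 and 0.169 in RANKL + Vit D + K. The libraries with the vitamins held 16, 18 and 11 counts, where PBS held 5877, 4254 and 5600. Ms4a4a was 153-fold lower with the vitamins than in RANKL (log2 fold change -7.26, SE 0.77, adjusted p = 0.000581) and 348-fold lower than in PBS (-8.44, SE 0.80, adjusted p = 0.000236). On the log2(FPKM + 1) scale the changes were -4.67 and -6.10. In the fit on counts they ranked as the 109th and the 36th lowest changes of the 17002 genes. RANKL alone gave -1.19 (SE 0.55, 95% interval -2.43 to 0.06, adjusted p = 0.293). All RANKL libraries lay below PBS, but RANKL replicate 2 was 6.5 times lower than the highest of its group.

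Ms4a4c, a gene of inflammatory monocytes and of interferon-treated cells, came after Ms4a4a in the size of its fitted change. Its FPKM was 5.86, 4.78 and 3.76 in PBS, 9.32, 2.81 and 7.83 in RANKL, and 0, 0.0657 and 0.14 with the vitamins. PBS and RANKL overlapped, with a fitted change of 0.37 (SE 0.65, adjusted p = 0.827). The counts with the vitamins were 0, 9 and 19, and a count of 0 allows up to 3. Ms4a4c was 85.7-fold lower with the vitamins than in RANKL (-6.42, SE 0.86, adjusted p = 0.00136) and 66.4-fold lower than in PBS (-6.05, SE 0.85, adjusted p = 0.000979). The size of these changes is uncertain: without vitamin replicate 3 they were -7.51 and -7.09, without vitamin replicate 1 the change against PBS was -5.45, and in limma on log2(FPKM + 1), where a low gene's change comes out too small, they were -2.72 and -2.43. Ms4a4c was called under each of these settings. Of the 50-base stretches of its transcript, 8.48% also occur in other genes, mainly Ms4a4b, so a part of its reads could have been assigned to either.

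Ms4a6b and Ms4a6c, the pair with the near-copied promoters, moved together. Ms4a6b had FPKM of 40.8, 32 and 29.9 in PBS, 22.6, 10.9 and 23.1 in RANKL, and 1, 3.08 and 1.64 with the vitamins. Ms4a6c had 179, 142 and 154 in PBS, 128, 65.7 and 142 in RANKL, and 6.13, 22.5 and 9.49 with the vitamins. In both genes the vitamin libraries were all below RANKL, and replicate 2 was the highest of the vitamin libraries. Ms4a6b was 9.25-fold lower with the vitamins than in RANKL (-3.21, SE 0.41, adjusted p = 0.00114) and 18.1-fold lower than in PBS (-4.18, SE 0.43, adjusted p = 0.000317). Ms4a6c was 8.33-fold lower (-3.06, SE 0.45, adjusted p = 0.00186) and 12.7-fold lower (-3.67, SE 0.46, adjusted p = 0.000625). With RANKL alone neither gene was called, at -0.97 (SE 0.38, adjusted p = 0.21) for Ms4a6b and -0.61 (SE 0.42, adjusted p = 0.49) for Ms4a6c. On the counts as normalized for the fit, PBS and RANKL did not overlap in either gene. For Ms4a6c, PBS replicate 2 and RANKL replicate 3 were both at an FPKM of 142.

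The values of this pair are not fully separate measurements. Their coding sequences were 85.8% identical over the aligned bases, and 5.89% of the 50-base stretches of Ms4a6b and 11.3% of those of Ms4a6c occur in other genes, 109 of them in each other. Ms4a6c also shares 1088 exon bases, 53.1% of its own, with BE692007 on the opposite strand, and the counting is not stated to use strand, so reads of these 2 genes cannot be told apart there. BE692007 was lower with the vitamins than in RANKL as well (-3.96, SE 0.54, adjusted p = 0.00143).

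Ms4a6d, which shares 81.2% and 77.4% of its aligned coding bases with Ms4a6b and Ms4a6c, followed a different course. Its FPKM was 166, 159 and 147 in PBS, 110, 61.5 and 111 in RANKL, and 59.7, 63.9 and 58.5 with the vitamins. RANKL lay below PBS in all libraries (-0.85, SE 0.22, adjusted p = 0.0743), and the vitamin libraries overlapped RANKL through RANKL replicate 2 (-0.50, SE 0.22, upper bound of the 95% interval 0.00, adjusted p = 0.114). Ms4a6d was 2.55-fold lower with the vitamins than in PBS (-1.35, SE 0.23, adjusted p = 0.00203). Without RANKL replicate 2 it was called in both other comparisons, at -0.59 (adjusted p = 0.0469) against PBS and -0.75 (adjusted p = 0.00213) for the vitamins against RANKL. Of its 50-base stretches 2.92% occur in other genes.

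Ms4a7, the macrophage marker of the family, fell in 2 steps. It had FPKM of 76.1, 58.2 and 79.7 in PBS, 40.4, 25.8 and 44.1 in RANKL, and 14.2, 22.8 and 19.6 with the vitamins, with no overlap between any groups. It was 2.10-fold lower in RANKL than in PBS (-1.07, SE 0.24, adjusted p = 0.0475), 1.79-fold lower with the vitamins than in RANKL (-0.84, SE 0.24, adjusted p = 0.0258) and 3.77-fold lower than in PBS (-1.91, SE 0.25, adjusted p = 0.000689). The call against PBS was lost without any 1 of the PBS or RANKL libraries or without vitamin replicate 3, with adjusted p-values of up to 0.192, and also with no filter on low counts (adjusted p = 0.0793) and in each limma fit on FPKM. The call of the vitamins against RANKL was lost without RANKL replicate 1 or 3 or without vitamin replicate 1 or 3, with adjusted p-values of up to 0.0969. None of its 50-base stretches occurs in another gene.

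Ms4a14, a member with a much longer coding sequence (3696 bases, against 651 to 870 in the others), fell with RANKL and was not called with the vitamins against RANKL. Its FPKM was 20.9, 15.9 and 15.2 in PBS, 9.1, 5.16 and 8.56 in RANKL, and 6.53, 5.7 and 9.47 with the vitamins. The RANKL and vitamin libraries overlapped. Ms4a14 was 2.46-fold lower in RANKL than in PBS (-1.30, SE 0.29, adjusted p = 0.0463), and this call was lost without any 1 of the PBS or RANKL libraries or without vitamin replicate 1, with adjusted p-values of up to 0.174, and also with no filter on low counts (adjusted p = 0.0712) and in the limma fit on FPKM without a filter (adjusted p = 0.071). Between the vitamins and RANKL the change was 0.08 (SE 0.29, 95% interval -0.57 to 0.72, adjusted p = 0.861), an interval that still allows a change of 0.57 downwards. Its sign turned to -0.16 without RANKL replicate 2 and to -0.18 without vitamin replicate 3. Against PBS it was called lower with the vitamins (-1.23, SE 0.29, adjusted p = 0.00972).

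Ms4a8a, reported elsewhere in tumour-associated and alternatively activated macrophages, was barely detected. It had 7, 4 and 4 counts in PBS, 18, 12 and 0 in RANKL, and 0 in all 3 libraries with the vitamins, where a count of 0 allows up to 3 per library. Its FPKM was at most 0.128. At this depth a difference between PBS and RANKL could not be shown. Ms4a8a entered 10 of the other fits, was called lower with the vitamins than in RANKL in 2 of them (DESeq2, adjusted p = 0.0231, and without RANKL replicate 3, adjusted p = 0.029), and was called lower than in PBS in 1 (without RANKL replicate 3, adjusted p = 0.0318).

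The members and their neighbours were also set out along the chromosome. The cluster holds 22 genes of the table, 14 of them no members, and 8 of those 14 were tested. None of the 8 was called in RANKL against PBS. With the vitamins 1 was called higher and 3 lower than in RANKL, beside 17.2% of all tested genes called lower. The 3 lower were Ms4a4b (-5.01, SE 1.01, adjusted p = 0.00652), Gm8369 (-3.92, SE 1.21, adjusted p = 0.0341) and BE692007, which all lie among the plus-strand members. BE692007 shares exon bases with Ms4a6c, and Ms4a4b shares sequence with Ms4a4c, so they are not fully separate from the members. Ms4a4b and Gm8369 had counts of 0 in vitamin replicates 1 and 3. The higher one was Gm336 (2.58, SE 0.68, adjusted p = 0.0186), a processed pseudogene near Ms4a8a at FPKM of at most 1.16. Gm5511, on the plus strand between Ms4a4c and Ms4a4b, was not called (-1.51, SE 0.98, adjusted p = 0.266), nor was Gm38275, next to Ms4a6d (-2.19, SE 0.91, adjusted p = 0.0923).

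**Figure D4:**
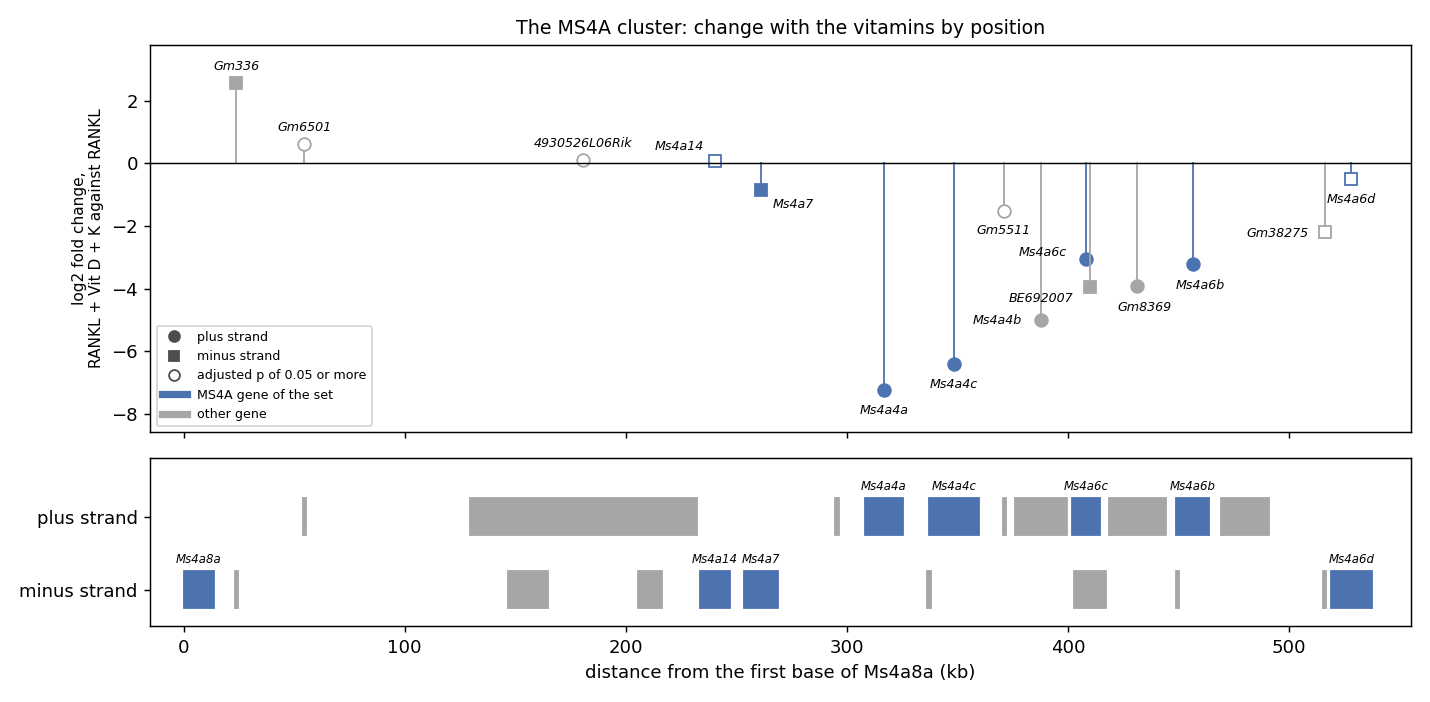
Log2 fold change of RANKL + Vit D + K against RANKL (upper y axis) for the tested genes of the MS4A cluster and the gene bodies by strand (lower panel), against the distance in kb from the first base of Ms4a8a (x axis). The falls beyond -3 lie in the stretch from Ms4a4a (starting at 308.1 kb) to Ms4a6b (starting at 449.0 kb), where Gm5511 (-1.51) was not called, while Ms4a14 and Ms4a7 before it and Ms4a6d after it lie between -0.84 and 0.08.

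Other genes of the family were few in these cells. Ms4a4b, better known from T cells, had 237, 235 and 204 counts in PBS, 199, 88 and 196 in RANKL, and 0, 14 and 0 with the vitamins, and part of it shares sequence with Ms4a4c. Ms4a12, Ms4a3, Ms4a4d and Ms4a5 had at most 25 counts in any library and were not tested. Ms4a3, a gene of granulocyte and monocyte progenitors, had FPKM of 0.0737 in PBS replicate 2 and 0.168 in RANKL replicate 2 and was at 0 in the other libraries. Ms4a1 and Ms4a2, the CD20 and IgE receptor genes, were not analysed here.

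Tmem176a and Tmem176b code for related membrane proteins and lie on another chromosome. Both fell with the vitamins. Tmem176b had FPKM of 45, 13.2 and 25.4 in PBS, 86.3, 46.6 and 67.2 in RANKL, and 0.669, 3.91 and 2.18 with the vitamins. PBS replicate 1 and RANKL replicate 2 were close to each other, and the change was not called (1.14, SE 0.57, adjusted p = 0.33). With the vitamins it was called lower than in RANKL (-4.80, SE 0.66, adjusted p = 0.00145), and Tmem176a was too (-5.27, SE 0.58, adjusted p = 0.000678).

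Genes reported as partners of MS4A proteins, or of their receptors, were compared as a list of 8: Clec7a, Trem2, Tyrobp, Fcer1g, Vsig4, Cd74, H2-Aa and H2-Ab1. In RANKL against PBS 0 of 8 were called. With the vitamins 5 of 8 were called lower than in RANKL and 7 of 8 lower than in PBS. Vsig4, the reported partner of MS4A6D, was low throughout (FPKM 0.227 to 0.365 in RANKL) and at 0 in all 3 vitamin libraries (adjusted p = 0.0018). Its counts were 38, 41 and 28 in RANKL, so with the floor of 3 counts per library it was at least 11.8-fold lower. The MHC class II genes H2-Aa (32-fold lower, adjusted p = 0.00129) and H2-Ab1 (-4.65 on the log2 scale, adjusted p = 0.00112) and their chaperone Cd74 (-3.77, adjusted p = 0.00127) fell with them.

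The receptors and adaptors of the list changed less. Clec7a, which codes for dectin-1, had FPKM of 61.1, 40.9 and 50 in PBS, 45.2, 19.1 and 35.6 in RANKL, and 32.7, 16.4 and 26.5 with the vitamins. It was called in none of the 3 comparisons (-0.24, SE 0.38, adjusted p = 0.655 with the vitamins against RANKL), while Ms4a4a fell 153-fold. Trem2, a lipid receptor, was at -0.14 (SE 0.16, adjusted p = 0.541), and its adaptor Tyrobp fell by 0.84 (SE 0.17, adjusted p = 0.00604). Fcer1g, the gamma chain of Fc receptors, was at -0.19 (SE 0.11, adjusted p = 0.226).

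Markers of the states in which MS4A genes are usually found fell with them in part. Of 15 interferon-stimulated genes 0 were called in RANKL against PBS and 15 were called lower with the vitamins than in RANKL, with a median of -3.45. Ifit1 was at -5.38 (SE 0.79, adjusted p = 0.00188) and Isg15 at -3.33 (SE 0.40, adjusted p = 0.000881). Of 8 genes of Ly6C-high monocytes 6 were called lower with the vitamins than in RANKL, among them Ccr2 (-5.76, SE 0.68, adjusted p = 0.000881), the receptor that draws monocytes into tissue. The summed FPKM of these 8 genes was 60 to 75 in PBS, 29 to 51.7 in RANKL and 2.65 to 5.03 with the vitamins, and the part of such cells in the MS4A values was not tested. Of 10 tested genes of alternative activation 5 were called lower and 1, Egr2, higher (2.52, SE 0.46, adjusted p = 0.00458). Mrc1, a defining marker of that state beside Ms4a4a, was at -0.47 (SE 0.20, adjusted p = 0.099).

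Of 14 genes of macrophage identity 11 were called lower with the vitamins than in RANKL and 1, Cd68, higher (0.53, SE 0.13, adjusted p = 0.0143). Csf1r, the M-CSF receptor, was at -1.45 (SE 0.22, adjusted p = 0.002), C1qb, of complement C1q, at -2.13 (SE 0.24, adjusted p = 0.0007) and Adgre1, the F4/80 gene, at -0.78 (SE 0.16, adjusted p = 0.00624). Spi1, which codes for PU.1, was at -0.46 (SE 0.14, adjusted p = 0.0318). Summed over the list, FPKM was between 27597 and 31888 in PBS, between 17466 and 25474 in RANKL, and 4698, 11907 and 6470 with the vitamins, most of it from Lyz2. RANKL replicate 2 was thus the lowest of its group and vitamin replicate 2 the highest of its group, as in most members. The part of macrophage identity in the MS4A values was not tested.

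RANKL replicate 2 was the lowest RANKL library in 7 of 7 members with an FPKM of 1 or more in any library, and over 12664 such genes it was the lowest in 31.7% and the highest in 50.6%. It also had the highest summed FPKM of 10 osteoclast genes, at 1022 against 661 and 489 in the other RANKL libraries, 23.6 to 31.8 in PBS and 70.4 to 100 with the vitamins. A link between this sum and the MS4A values was not tested. Of these 10 genes 9 were called higher in RANKL than in PBS, and with the vitamins 8 were called lower than in RANKL and 1, the integrin gene Itgb3, higher (2.08, SE 0.55, adjusted p = 0.0186). Acp5 and Ctsk, the acid phosphatase and the collagen-cleaving protease of osteoclasts, were at 5.57 (SE 0.69, adjusted p = 0.00514) and 4.83 (SE 0.35, adjusted p = 0.00037) in RANKL against PBS. Vitamin replicate 2 was the highest of its group in 5 of 7 members and in 57.2% of those genes.

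Markers of other cell types were at low levels, with neutrophil genes as the exception. The summed FPKM of 8 neutrophil genes was 65.2, 128 and 11.1 in PBS, 90.5, 148 and 11.3 in RANKL, and 0.757, 1.72 and 0.551 with the vitamins, and 6 of 7 tested genes were called lower with the vitamins than in RANKL. Between PBS libraries that sum differed 11.5-fold and the tested members by up to 1.56-fold. Between RANKL libraries it differed 13.1-fold, with Ms4a4a at 6.5-fold and Ms4a4c at 3.32-fold, and RANKL replicate 2 had the highest sum and the lowest values of the members. Ly6g, a defining neutrophil gene, was at 0 in all libraries but 1. The part of such cells in the fall of the members with the vitamins was not tested. The B cell genes summed to at most 0.795, dendritic cell genes to at most 0.493, stromal and osteoblast genes to at most 0.28, and mast cell and basophil genes to at most 0.0633, with Tpsab1 at 0 in every library. The T and NK cell genes of the table, Cd4 and Ms4a4b, summed to 4.06 at most, in RANKL replicate 1. Against RANKL, 1 of 1 tested B cell genes, 2 of 2 T and NK cell genes, 2 of 4 dendritic cell genes and 1 of 2 stromal genes were called lower, and their part in the member values was not tested.

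Each member was also set beside all tested genes, to find those with the most similar course over the 9 libraries. The measure was the root mean square difference of log2 CPM (counts scaled to library size), each gene centred on its own mean, so that a lower value means more alike. For Ms4a6c the nearest genes were Neurl3 (0.22) and Ms4a6b (0.22), and for Ms4a6b they were AW112010 (0.18) and Ms4a6c (0.22). Neurl3 was at -0.58, -3.19 and -3.77 on the log2 scale in the 3 comparisons, against -0.61, -3.06 and -3.67 for Ms4a6c. Ms4a4c lay nearest to the interferon-inducible genes Gbp5 (0.41) and Ifit3b (0.59), and Ms4a4a nearest to Gm45540 (0.54) and Hpgd (0.60), the enzyme that breaks down prostaglandins. Hpgd fell from a mean FPKM of 141 in PBS and 49.6 in RANKL to 0.784 with the vitamins.

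The members with a smaller response had other neighbours. Ms4a6d lay nearest to Ctsh, a lysosomal protease (0.13), and Dtx3 (0.13), and Ms4a7 nearest to Zdhhc14 (0.14) and Adamts10 (0.15). Ms4a14 lay nearest to Irf8 (0.23), a transcription factor of monocytes and macrophages that osteoclast formation lowers, and to Col20a1 (0.23). Irf8 was at -0.94 in RANKL against PBS (adjusted p = 0.056) and at -0.10 with the vitamins against RANKL (adjusted p = 0.773), beside -1.30 and 0.08 for Ms4a14. Among the members themselves Ms4a6b and Ms4a6c were the closest pair (0.22), followed by Ms4a7 with Ms4a6d (0.31) and Ms4a6d with Ms4a14 (0.32), and Ms4a14 and Ms4a4a were the farthest apart (3.31).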

How the data were processed

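Poly(A) RNA of 9 BMDM libraries was sequenced. The authors deposited 1 table with whole-number read counts per gene, not normalized, and FPKM values, which the authors scaled to transcript length and library size. The submitters' processing notes list cutadapt 1.9, HISAT2 2.0.4, StringTie 1.3.4d and edgeR. They name the human build hg38, whereas the gene identifiers and coordinates are those of mouse: 28294 of the 28379 identifiers are in GENCODE M21 (GRCm38), and 24678 (87%) have the same position there. The counting program and its use of strand are not given in the sources used here. Total counts were between 65915112 and 68229647 per library. Counts of 4 outnumbered the mean of those of 3 and 5 by 2.22 times, so counts may not be independent reads, and floors (3 counts) cover counting error only. No libraries were identical.

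Counts were tested in R 4.3.3 with edgeR 4.0.16 (filterByExpr, TMM, quasi-likelihood test, 1 model of 9 libraries, Benjamini-Hochberg adjustment over 17002 genes, threshold 0.05, two-sided). SE is the log2 fold change divided by the square root of F. The script was tested on simulated data. Groups and replicate numbers came from the labels. Deviations from the group means correlated at 0.122, 0.219 and 0.155 between same-numbered PBS and RANKL libraries, and between -0.0216 and 0.107 for the other groups. The main fit held group means only and did not pair libraries. Pairing by replicate number entered only as an alternative, the replicate block. Alternatives were DESeq2 1.42.0, median-of-ratios size factors, no filter on low counts, the compared groups alone, the replicate block, limma 3.58.1 on log2(FPKM + 0.1) and log2(FPKM + 1) for genes whose FPKM averaged 0.1 or more, the same without that filter, and each library left out. Named genes were all members, other MS4A genes with Tmem176a and Tmem176b, genes between the members, the 2 genes most like each tested member, and examples from the lists. Members, lists and list examples were chosen with earlier results of these data known. Promoters are from RefSeq (GRCm38.p6). The table used here held no window for Ms4a6d. An item of the lists and of the motif search is not reported here.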

Additional observations from a re-analysis of the deposited data

How the results depend on the processing

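The number of members called in RANKL against PBS was 2. It rose to 3 with DESeq2, which also called Ms4a6d, and it fell to 0 with no filter on low counts, to 1 with limma on log2(FPKM + 0.1) or log2(FPKM + 1), and to 0 with limma on log2(FPKM + 0.1) without a filter. With 1 library left out it was between 0 and 3. The numbers called with the vitamins stayed within 4 to 6 against RANKL and 7 to 8 against PBS under all alternatives. The 6 by DESeq2 and the 8 without RANKL replicate 3 include Ms4a8a. Of 357 results of the 7 tested members under alternatives, 324 kept their direction and side of the threshold, 24 lost the call, 4 gained it and 5 turned sign. The 5 were Ms4a14 with the vitamins against RANKL, at -0.06 under each limma setting, -0.16 without RANKL replicate 2 and -0.18 without vitamin replicate 3. Over all fits with 1 library left out that change was between -0.18 and 0.27, beside 0.08 with all libraries. The calls lost were those of Ms4a7 and Ms4a14 in RANKL against PBS and of Ms4a7 with the vitamins against RANKL, and the calls gained were those of Ms4a6d. The cause of these changes was not tested.

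With the replicate block 2 members were called in RANKL against PBS, 5 with the vitamins against RANKL and 7 against PBS, and the paired fit changed no call of a member. Over all genes 614 were called in RANKL against PBS, against 1611 by DESeq2, 1736 with those groups alone and 126 to 1903 with 1 library left out. With the vitamins against RANKL 5725 were called, and 3199 without RANKL replicate 1. Of those calls 48.8% were higher, and between 36.5% and 37.8% with limma on FPKM, where the median of all genes was -0.16 with the pseudocount of 0.1 and the FPKM filter and -0.06 without the filter. In RANKL against PBS 65.1% of calls were higher, and 77.1% with limma without a filter.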
